A study of Homo sapiens with 60 samples.

Results

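The 10 genes described here are a set of NF-kB and cytokine genes, CCL20, CXCL8, CXCL1, CXCL2, ICAM1, UBD, NFKBIA, TNFAIP3, BIRC3 and RELB. They were chosen by name, with earlier results of these data known. Their rows were found by matching the Ensembl identifiers of the count table to these symbols. They are 10 of 60675 genes in the table. Of these, 8 passed the filter on low counts and are among the 16093 genes tested, while CXCL1 and CXCL2 did not pass.

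The cells were HepG2, an established human hepatocellular carcinoma line from a single tumour that keeps many hepatocyte functions, and all libraries were made after 24 h of exposure. Groups of 3 libraries received a water extract of Citri Unshius Pericarpium, Cimicifugae Rhizoma, Bupleuri Radix, Aconiti Lateralis Radix Preparata, Yijung-tang or Banhasasim-tang at 20, 100 or 500 µg/mL. Bojungikgi-tang had 1 library per dose, and the vehicle (0.1% DMSO per the sample labels) had 3 libraries, which gives 60 libraries in all. The names ending in "-tang" are mixtures of several herbs and the others are single herbal drugs. The number that opens each title puts Citri Unshius Pericarpium with Cimicifugae Rhizoma (set 5), Bupleuri Radix with Aconiti Lateralis Radix Preparata (set 6), and Yijung-tang with Banhasasim-tang (set 7), while the vehicle stands in a set of its own. Doses were therefore compared within an extract, and the 2 extracts of a set were compared by the difference of their dose effects. All titles, those of the vehicle included, carry the label BatchB. Still, a difference from vehicle cannot be told apart from a difference between sets. Nothing in the labels says that the replicates came from different cultures. The p-values therefore reflect only how these libraries vary, and part of that may be technical.

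NF-kB is a family of dimeric transcription factors held in the cytoplasm by inhibitor proteins. Signals from receptors for tumour necrosis factor, interleukin-1 or microbial products lead to destruction of the inhibitor, and the released dimers enter the nucleus. There they switch on chemokine and adhesion genes together with genes for their own inhibitors, which gives negative feedback. In the liver, hepatocytes answer such signals with chemokines that draw neutrophils and lymphocytes and with acute-phase proteins.

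Among the members, the effectors are CCL20, a chemokine that attracts cells bearing CCR6, CXCL8 (interleukin-8), CXCL1 and CXCL2, neutrophil chemokines that signal through CXCR2, ICAM1, an adhesion molecule for leukocyte integrins, and UBD, the ubiquitin-like modifier FAT10 that marks proteins for the proteasome and is raised by tumour necrosis factor with interferon-gamma. The regulators are NFKBIA, the inhibitor IkB-alpha, TNFAIP3, the ubiquitin-editing enzyme A20, BIRC3, the ubiquitin ligase cIAP2, and RELB, an NF-kB subunit of the alternative pathway.

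The promoter stretches below are shown because the members are known as targets of NF-kB. They come from a RefSeq table on GRCh38.p14 that holds the bases before each gene's RefSeq start, and 9 of the 10 members were matched in it. GENCODE release 29, used for the gene bodies, places some starts further upstream. By it the stretches of CXCL2, ICAM1, TNFAIP3 and UBD lie in an exon and that of CCL20 lies inside the gene but in no exon, while the other 4 lie outside the gene. Both strands of the 250 bases before the start were searched for the NF-kB consensus, taken by its name, and for GGANNNTCC, which is its own reverse complement. The motifs can overlap. Capitals mark the bases of a match to either motif, and each sequence runs 5′ to 3′ on the strand of the gene.
CCL20, chr2:227813728-227813807, plus strand: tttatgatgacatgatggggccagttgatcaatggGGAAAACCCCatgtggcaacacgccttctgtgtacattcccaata
CXCL8, chr4:73740426-73740505, plus strand: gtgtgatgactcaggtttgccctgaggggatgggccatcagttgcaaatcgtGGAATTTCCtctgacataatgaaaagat
CXCL1, chr4:73869279-73869358, plus strand: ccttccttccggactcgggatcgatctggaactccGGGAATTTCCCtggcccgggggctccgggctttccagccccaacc
CXCL2, chr4:74099254-74099283, minus strand: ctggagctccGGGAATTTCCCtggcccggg
ICAM1, chr19:10270923-10270952, plus strand: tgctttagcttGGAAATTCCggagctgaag
TNFAIP3, chr6:137867188-137867217, plus strand: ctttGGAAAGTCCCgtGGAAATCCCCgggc
NFKBIA, chr14:35404786-35404865, minus strand: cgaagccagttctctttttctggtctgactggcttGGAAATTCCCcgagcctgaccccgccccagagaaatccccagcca
BIRC3, chr11:102317282-102317361, plus strand: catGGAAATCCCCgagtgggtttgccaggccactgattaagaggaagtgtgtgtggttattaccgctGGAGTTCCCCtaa
UBD, chr6:29559766-29559795, minus strand: aatccaggcaGGGGATTTCCaactcaactc

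The NF-kB consensus was found in 7 of the 9 member promoters and in 9.96% of the 35116 promoters of the table. GGANNNTCC was found in 7 of 9 members and 7.8% of all promoters, and at least 1 of the motifs in 9 of 9 members and 14.3% of all promoters. CXCL1 and CXCL2, neighbouring chemokine genes on chromosome 4, carry the same capitalised stretch, and TNFAIP3 and BIRC3 each carry 2 separate stretches in the window shown. RELB is named only. These matches describe letters and are not evidence of binding in these cells.

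The gene bodies, on GRCh38 with GENCODE release 29, lie at chr2:227805739-227817564 (CCL20, ENSG00000115009), chr4:73740506-73743716 (CXCL8, ENSG00000169429), chr4:73869393-73871242 (CXCL1, ENSG00000163739), chr4:74097035-74099293 (CXCL2, ENSG00000081041), chr19:10270835-10286615 (ICAM1, ENSG00000090339), chr6:29555515-29559925 (UBD, ENSG00000213886), chr14:35401511-35404749 (NFKBIA, ENSG00000100906), chr6:137867188-137883312 (TNFAIP3, ENSG00000118503), chr11:102317450-102339403 (BIRC3, ENSG00000023445) and chr19:45001430-45038198 (RELB, ENSG00000104856). ICAM1 and TNFAIP3 overlap antisense genes, and UBD overlaps GABBR1 on its own strand and OR2I1P on the other. Because the strand setting of the counting is not given in the sources used here, reads of these 3 members could be shared with those neighbours, and their levels are uncertain to that extent.

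Expected counts, the read estimates of the deposited table, summed to 17598646 to 30451640 per library. Hepatocyte markers (ALB, APOA1, TTR, AFP and others, 6 genes) summed to 16124 to 21266 CPM (counts scaled to library size), so the hepatocyte label was met in every library. Vehicle replicate 2 stands apart from the other 59 libraries. It held PTPRC, the pan-leukocyte marker CD45, at 6.95 CPM against at most 0.0457 elsewhere, the T-cell marker CD3E at 5.49 against at most 0.0494, and the B-cell marker MS4A1 at 3.61 against 0. It was also the highest vehicle library for CXCL8, NFKBIA, TNFAIP3, BIRC3 and RELB, so results against vehicle are given with and without it. Mitochondrial ribosomal RNA took 12.5% of counts in Aconiti Lateralis Radix Preparata at 500 µg/mL and 8.58% at 100 µg/mL, against group means of 2.41 to 4.30% in the other groups, and its part in the results on that extract was not tested.

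Levels per kilobase of transcript put the members in a wide order. The median over 60 libraries was 46.9 CPM per kb for NFKBIA, 25.5 for ICAM1, 18 for UBD and 16.9 for CCL20. TNFAIP3 followed at 7.72, RELB at 1.42, CXCL8 at 0.868 and BIRC3 at 0.382 CPM per kb. CXCL8 rested on 21 to 106 expected counts per library, BIRC3 on 40 to 179 and RELB on 54 to 212, and their fold changes are the least precise. CXCL2 had 0 to 8 expected counts and was at 0 in 15 libraries, with at most 0.274 CPM. CXCL1 had 0 to 3 expected counts and was at 0 in 36 libraries, with at most 0.130 CPM. Neither neutrophil chemokine was measured well enough to compare doses, so of the CXCR2 ligands only CXCL8 is followed below. All levels below are CPM of the whole gene, and all folds are from edgeR's quasi-likelihood test with Benjamini-Hochberg adjustment over all tested genes. They are written as log2 fold change ± standard error at n = 3 libraries per group, and calls were made at an adjusted p under 0.05.

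CCL20 ranged from 19 to 66.6 CPM over all libraries, and its response set the extracts apart. In Aconiti Lateralis Radix Preparata it stood at 24.8, 24.7 and 24.5 CPM at 20 µg/mL, at 37.9, 34.7 and 31.8 at 100 µg/mL and at 64.6, 66.6 and 59.6 at 500 µg/mL. Each dose lay above the one before it without overlap. The 500 against 20 µg/mL change was 1.37 ± 0.080 (adjusted p = 1.82e-19), a 2.58-fold rise. As these are bulk samples, a change in the number of cells of one kind and a change in RNA per cell cannot be told apart.

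In Banhasasim-tang CCL20 read 22.4, 26.3 and 31.5 CPM at 20 µg/mL and 55.6, 57.2 and 60.4 at 500 µg/mL, a rise of 1.11 ± 0.079 (adjusted p = 1.36e-15). The 100 µg/mL libraries, at 25.5, 29.2 and 30.1 CPM, lay within the range of the low dose. The high-dose groups of Banhasasim-tang and Aconiti Lateralis Radix Preparata overlapped each other and lay above every other group of the study. Cimicifugae Rhizoma raised CCL20 from 24.3, 29.4 and 27.0 CPM to 35.2, 35.8 and 34.3 (0.39 ± 0.085, adjusted p = 2.23e-04). Bupleuri Radix raised it from 27.0, 26.0 and 25.2 CPM to 34.7, 34.8 and 32.3 (0.38 ± 0.083, adjusted p = 4.93e-04). Only Citri Unshius Pericarpium, of the 6 extracts tested, lowered it between these doses, from 27.9, 29.6 and 26.5 CPM to 20.4, 20.5 and 19.3 (-0.48 ± 0.090, adjusted p = 6.17e-04). Yijung-tang gave 25.6, 27.2 and 27.3 CPM at 20 µg/mL, 34.2, 34.4 and 33.0 at 100 µg/mL and 21.3, 25.5 and 26.0 at 500 µg/mL. There the middle dose was the highest, without overlap with either of the others, and the ends did not differ by the test (-0.14, adjusted p = 0.471).

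CXCL8 was low throughout, and in every group its mean was under 4 CPM. Cimicifugae Rhizoma raised it from 1.99, 2.06 and 1.82 CPM at 20 µg/mL to 4.93, 2.82 and 3.20 at 500 µg/mL (0.91 ± 0.22, adjusted p = 5.57e-04). Bupleuri Radix raised it from 1.96, 1.45 and 1.45 CPM to 3.15, 3.10 and 2.88 (0.89 ± 0.22, adjusted p = 0.00164), and Aconiti Lateralis Radix Preparata from 1.26, 1.84 and 1.85 to 3.35, 2.88 and 3.02 (0.89 ± 0.22, adjusted p = 8.58e-04). In all 3 extracts the groups were separate. Banhasasim-tang went from 1.94, 2.41 and 2.11 CPM to 2.83, 2.93 and 3.58, also without overlap, but missed the threshold (0.54 ± 0.20, adjusted p = 0.0679). Yijung-tang lowered CXCL8 from 2.19, 2.51 and 1.37 CPM to 0.936, 1.35 and 0.871 (-0.95 ± 0.24, adjusted p = 0.014). That call was lost when any of 4 of its 6 libraries was left out, replicates 1 and 3 at 500 µg/mL and 1 and 2 at 20 µg/mL, with an adjusted p of 0.0662 to 0.124. Citri Unshius Pericarpium gave 2.03, 1.65 and 1.36 CPM at 20 µg/mL and 0.914, 1.09 and 1.02 at 500 µg/mL, separate groups with a change of -0.73 ± 0.27 that missed the threshold (adjusted p = 0.215).

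ICAM1 had small errors and split the extracts into risers and fallers. In Banhasasim-tang it rose from 94.9, 93.4 and 89.7 CPM to 137, 138 and 135 (0.56 ± 0.043, adjusted p = 1.41e-14). In Bupleuri Radix it rose from 87.4, 88.1 and 90.0 CPM to 126, 129 and 139 (0.57 ± 0.043, adjusted p = 5.66e-15). Cimicifugae Rhizoma, from 88.3, 87.1 and 86.8 CPM to 127, 136 and 121 (0.55 ± 0.044), and Aconiti Lateralis Radix Preparata, from 92.6, 91.9 and 91.4 to 129, 125 and 138 (0.51 ± 0.043), gave rises of like size. These 4 high-dose groups overlapped one another, and all of their libraries lay above every library of every other replicated group. Yijung-tang lowered ICAM1 from 94.5, 96.1 and 99.4 CPM to 84.7, 77.7 and 79.0 (-0.26 ± 0.043, adjusted p = 2.94e-05), although its 100 µg/mL libraries were at 108, 108 and 109. Citri Unshius Pericarpium lowered it from 86.4, 86.3 and 85.5 CPM to 72.1, 74.8 and 78.9 (-0.19 ± 0.045, adjusted p = 0.00905). Without replicate 1 at 500 µg/mL that last change was -0.16 with an adjusted p of 0.11.

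UBD followed the other effectors in part. Yijung-tang lowered it from 16.9, 17.5 and 18.5 CPM to 9.51, 10.2 and 11.3 (-0.77 ± 0.076, adjusted p = 3.03e-10), the lowest group of the study. Citri Unshius Pericarpium lowered it from 16.1, 17.3 and 18 CPM to 13.9, 11.6 and 12.8 (-0.42 ± 0.078, adjusted p = 5.14e-04). Banhasasim-tang raised it from 19, 23.0 and 22.7 CPM to 24.8, 28.9 and 27.8 (0.33 ± 0.066, adjusted p = 1.83e-04), and Cimicifugae Rhizoma from 21.4, 19.5 and 20.7 to 25.0, 24.8 and 23.0 (0.24 ± 0.071, adjusted p = 0.0051). Bupleuri Radix raised it from 16.9, 19.6 and 20.1 CPM to 22.7, 22.3 and 23.7 (0.29 ± 0.069, adjusted p = 0.00161), a call lost without replicate 1 at 20 µg/mL (0.21, adjusted p = 0.0514). In Aconiti Lateralis Radix Preparata, which gave the highest CCL20, UBD read 17.3, 19.1 and 17.9 CPM at 20 µg/mL and 15.3, 17.1 and 16.5 at 500 µg/mL, and was not called (-0.16, adjusted p = 0.091).

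**Figure D1:**
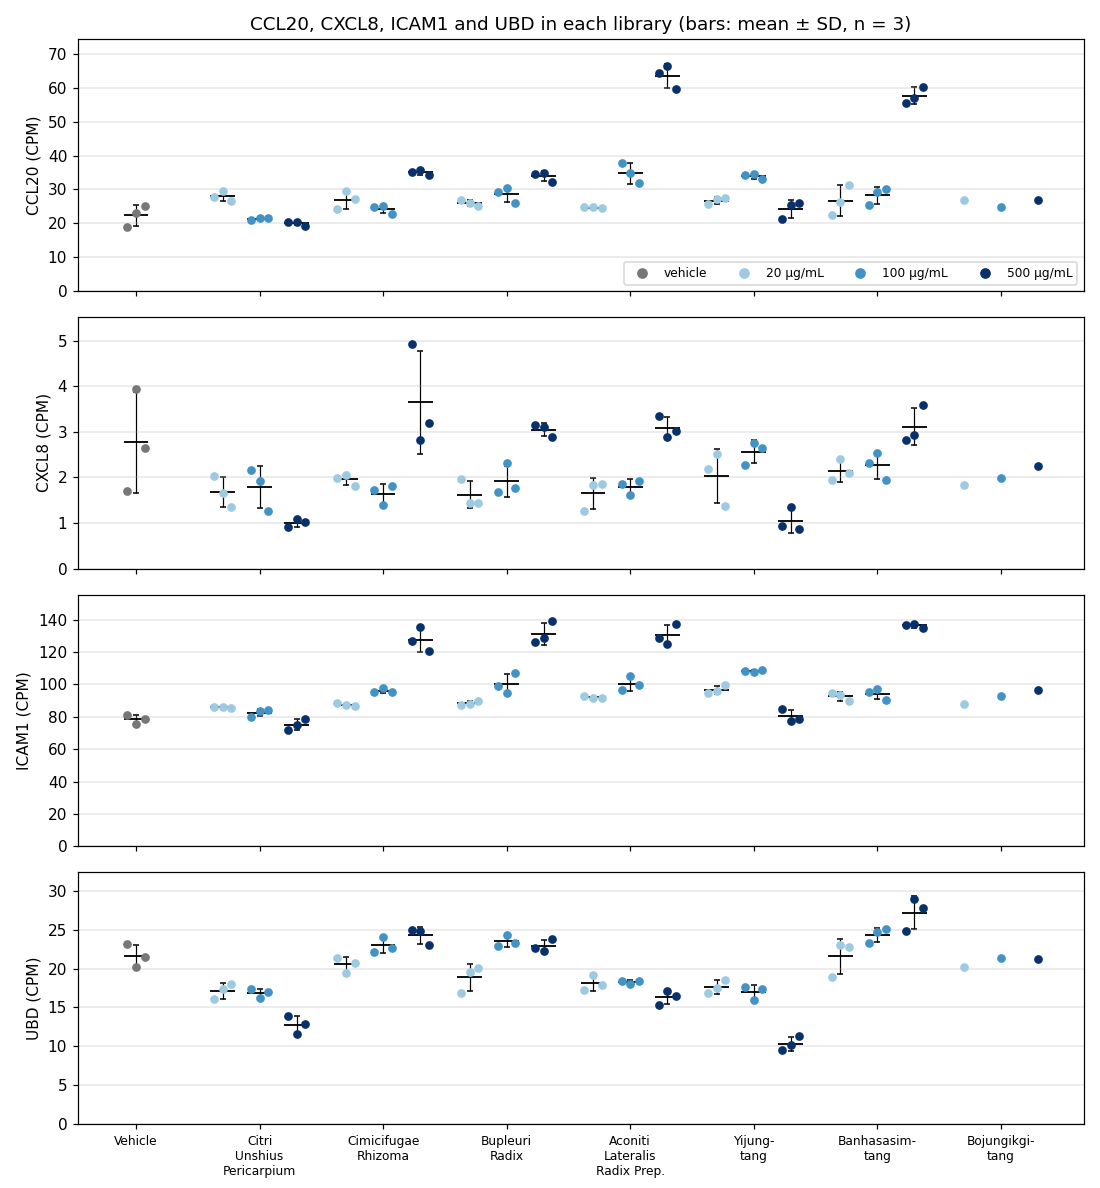
Level in CPM (vertical axis, from 0) of CCL20, CXCL8, ICAM1 and UBD in each library by extract and dose in µg/mL (horizontal axis); points are libraries, horizontal bars are means and error bars are ± SD of 3 libraries. The 3 libraries of Aconiti Lateralis Radix Preparata at 500 µg/mL sit at 59.6 to 66.6 CPM for CCL20, and the Yijung-tang libraries at 500 µg/mL sit at 9.51 to 11.3 CPM for UBD.

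Among the regulators, NFKBIA went the other way from CCL20, CXCL8 and ICAM1 in 3 extracts. Cimicifugae Rhizoma lowered it from 111, 112 and 103 CPM to 86.7, 79.2 and 76.6 (-0.43 ± 0.050, adjusted p = 7.33e-10). Aconiti Lateralis Radix Preparata lowered it from 112, 115 and 117 CPM to 88.4, 84.7 and 92.2 (-0.38 ± 0.049, adjusted p = 9.48e-09), and Bupleuri Radix from 117, 115 and 115 to 89.6, 90.0 and 98.5 (-0.32 ± 0.048, adjusted p = 1.28e-06). The means of these 3 high-dose groups were the lowest of all groups. In Banhasasim-tang, where CCL20 and ICAM1 rose, NFKBIA read 113, 125 and 112 CPM at 20 µg/mL and 108, 112 and 112 at 500 µg/mL and was not called (-0.08, adjusted p = 0.327). It was also not called in Citri Unshius Pericarpium (-0.07, adjusted p = 0.633) or Yijung-tang (0.07, adjusted p = 0.523).

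TNFAIP3, the other feedback inhibitor, was called in 4 extracts, lower in 3 and higher in 1. Banhasasim-tang raised it from 42.4, 37.7 and 40.1 CPM to 46.6, 47.2 and 44.9 (0.21 ± 0.056, adjusted p = 0.00816), and without replicate 2 at 20 µg/mL this was 0.16 with an adjusted p of 0.0893. Yijung-tang lowered it from 40.4, 39.1 and 44.2 CPM to 33.1, 29.9 and 30.6 (-0.40 ± 0.058, adjusted p = 2.89e-06). Citri Unshius Pericarpium lowered it from 38.6, 37.8 and 39.2 CPM to 30.4, 31.9 and 32.2 (-0.29 ± 0.061, adjusted p = 0.00277). It fell also in Cimicifugae Rhizoma, from 39.5, 40.3 and 40.7 CPM to 33.8, 36.3 and 35.0 (-0.20 ± 0.060, adjusted p = 0.00671), an extract in which 6 other members rose. Bupleuri Radix (0.01, adjusted p = 0.952) and Aconiti Lateralis Radix Preparata (-0.07, adjusted p = 0.403) did not pass the test for it.

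BIRC3 and RELB rose in the same 4 extracts as ICAM1. BIRC3 went from 2.87, 2.52 and 2.87 CPM to 4.75, 5.41 and 6.04 in Banhasasim-tang (0.97 ± 0.15, adjusted p = 2.64e-06) and from 3.16, 2.77 and 2.10 to 4.60, 5.03 and 5.90 in Aconiti Lateralis Radix Preparata (0.96 ± 0.16, adjusted p = 1.67e-06). It went from 2.97, 3.26 and 2.44 CPM to 5.17, 5.11 and 5.10 in Cimicifugae Rhizoma (0.83 ± 0.16) and from 2.82, 2.51 and 2.62 to 4.68, 4.55 and 3.99 in Bupleuri Radix (0.72 ± 0.16). The low- and high-dose libraries did not overlap in any of the 4. In Yijung-tang BIRC3 read 2.80, 2.91 and 2.34 CPM at 20 µg/mL and 2.02, 1.80 and 1.74 at 500 µg/mL, also separate, but was not called (-0.53, adjusted p = 0.0835).

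RELB reached its highest level in Banhasasim-tang, with 3.98, 4.22 and 3.96 CPM at 20 µg/mL and 7.19, 6.88 and 7.15 at 500 µg/mL (0.80 ± 0.15, adjusted p = 7.97e-05). Those 3 libraries lay above every other library. Cimicifugae Rhizoma raised it from 4.18, 3.62 and 2.57 CPM to 6.61, 6.26 and 5.59 (0.83 ± 0.17, adjusted p = 4.71e-05), and Aconiti Lateralis Radix Preparata from 3.25, 4.28 and 4.60 to 5.85, 5.99 and 6.68 (0.60 ± 0.16, adjusted p = 0.00171). Bupleuri Radix gave 3.75, 2.94 and 4.45 CPM at 20 µg/mL and 4.72, 4.84 and 6.52 at 500 µg/mL (0.53 ± 0.16, adjusted p = 0.0118), and this call was lost without replicate 2 at 20 µg/mL (adjusted p = 0.113) or replicate 3 at 500 µg/mL (adjusted p = 0.179). Neither Yijung-tang (-0.52, adjusted p = 0.0716) nor Citri Unshius Pericarpium (-0.28, adjusted p = 0.614) passed the test for RELB.

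**Figure D2:**
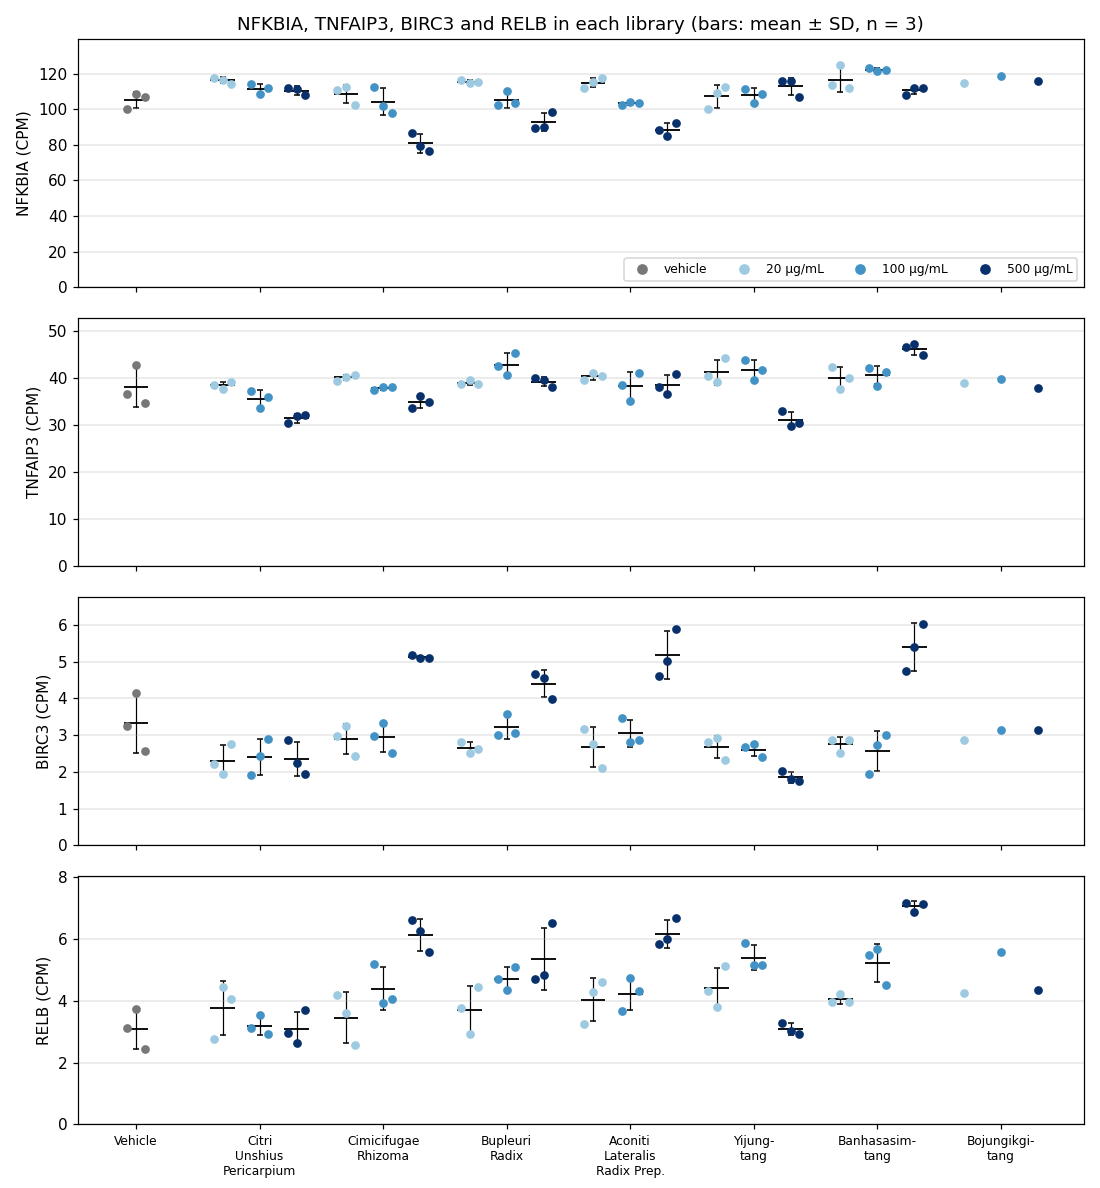
Level in CPM (vertical axis, from 0) of NFKBIA, TNFAIP3, BIRC3 and RELB in each library by extract and dose in µg/mL (horizontal axis); points are libraries, horizontal bars are means and error bars are ± SD of 3 libraries. NFKBIA is lowest at 500 µg/mL of Cimicifugae Rhizoma (76.6 to 86.7 CPM), and RELB is highest at 500 µg/mL of Banhasasim-tang (6.88 to 7.19 CPM).

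Counted by extract, the dose effects fell into opposite patterns. The members were chosen with earlier results of these data known, so their counts beside those of all genes only describe. In Banhasasim-tang 6 of the 8 tested members rose and 0 fell between 20 and 500 µg/mL, where 8.17% of all tested genes rose and 6.77% fell. In Bupleuri Radix 6 rose and 1 fell (10.0 and 8.74% of all genes), in Cimicifugae Rhizoma 6 rose and 2 fell (19.9 and 19.1%) and in Aconiti Lateralis Radix Preparata 5 rose and 1 fell (19.7 and 17.3%). In Citri Unshius Pericarpium 0 rose and 4 fell, where 0.708% of all genes rose and 0.926% fell, and in Yijung-tang 0 rose and 4 fell, where 1.72% rose and 2.01% fell. The median log2 change over the 8 members was 0.55 in both Aconiti Lateralis Radix Preparata and Banhasasim-tang, 0.47 in Cimicifugae Rhizoma and 0.45 in Bupleuri Radix. For Yijung-tang it was -0.46 and for Citri Unshius Pericarpium -0.28, and the median over all tested genes was between 0.00 and 0.01 in each of the 6.

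**Figure D3:**
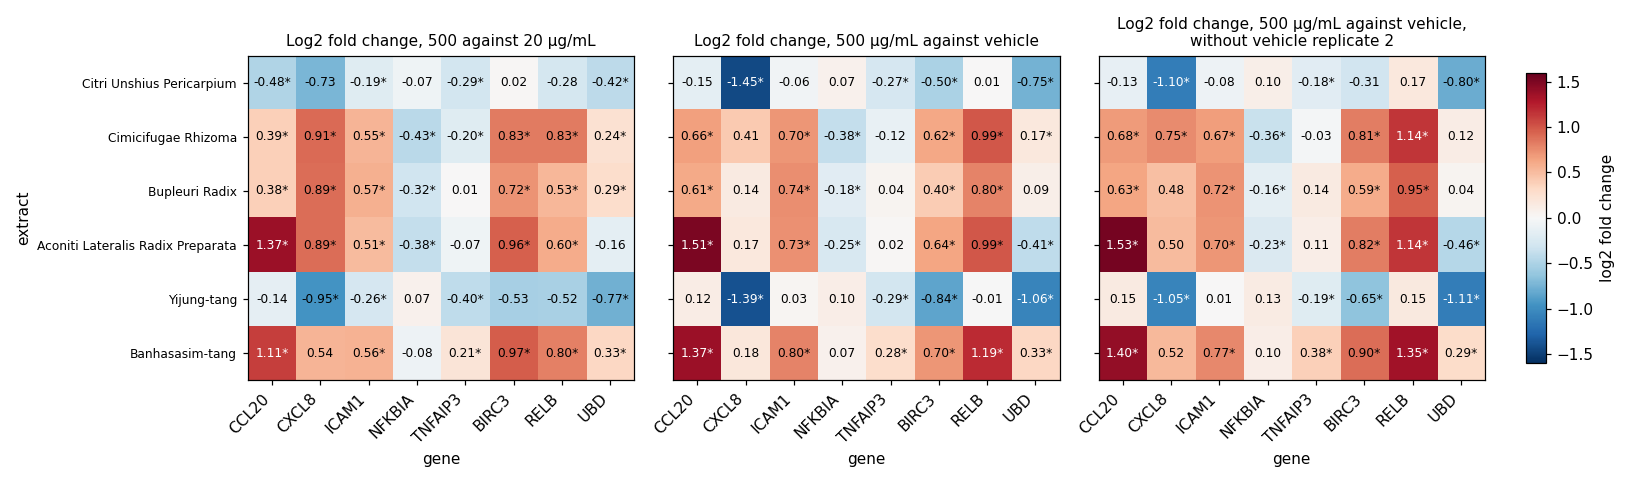
Heat maps of the log2 fold change (colour) of the 8 tested members (columns) in 6 extracts (rows), for 500 against 20 µg/mL, for 500 µg/mL against the 3 vehicle libraries and for 500 µg/mL against vehicle without its replicate 2; an asterisk marks an adjusted p under 0.05. In the first panel CCL20, ICAM1, BIRC3 and RELB are marked as higher in 4 extracts each, and NFKBIA as lower in 3.

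At 100 µg/mL few members had moved. Against 20 µg/mL 0 of 8 were called in Citri Unshius Pericarpium (0.0249% of all genes in either direction), Cimicifugae Rhizoma (1.27%) and Banhasasim-tang (0.0124%). At an unadjusted p under 0.05 edgeR gave 1 member in the first (CCL20), 3 in Cimicifugae Rhizoma (ICAM1, RELB and UBD) and 2 in Banhasasim-tang (RELB and UBD). The share of all tested genes at that unadjusted threshold was not counted, so these numbers are no result about the members. DESeq2 called CCL20 in the first and none in the others. Aconiti Lateralis Radix Preparata had 2 of 8 (5.74% of all genes), with CCL20 higher by 0.50 ± 0.083 (adjusted p = 3.99e-05) and NFKBIA lower at -0.15 ± 0.048 (adjusted p = 0.0449, lost without any 1 of the 6 libraries). Yijung-tang had 2 of 8 (1.22%), CCL20 at 0.34 ± 0.082 (adjusted p = 0.0165) and ICAM1 at 0.16 ± 0.043 (adjusted p = 0.0365). Bupleuri Radix had 1 of 8 (0.168%), UBD at 0.32 ± 0.070 (adjusted p = 0.0336), with 22.9, 24.3 and 23.3 CPM at 100 µg/mL. That call was lost without any 1 of the 6 libraries but replicate 3 at 20 µg/mL (adjusted p up to 0.499).

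The middle dose of Yijung-tang stood out for direction. CCL20, ICAM1, RELB and CXCL8 had higher means at 100 µg/mL (33.9, 108, 5.40 and 2.56 CPM) than at 20 µg/mL (26.7, 96.7, 4.42 and 2.02 CPM) and lower means at 500 µg/mL (24.3, 80.5, 3.09 and 1.05 CPM). The CCL20 and ICAM1 calls at 100 µg/mL did not hold when only the Yijung-tang libraries, at all doses, were fitted (adjusted p = 0.113 and 0.282). That of CCL20 was also lost without replicate 1 or 2 of either dose (adjusted p up to 0.141), and that of ICAM1 without any 1 library but replicate 3 at 20 µg/mL (adjusted p up to 0.235). The difference between 500 and 100 µg/mL was not tested.

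The 2 extracts of each set were read side by side, which keeps the set the same. In set 7, the dose effect of Yijung-tang lay below that of Banhasasim-tang for 7 of the 8 members, where 12.1% of all genes differed in either direction. The difference was -1.50 ± 0.23 for BIRC3 (adjusted p = 3.67e-06), -1.49 ± 0.32 for CXCL8 (adjusted p = 7.13e-04), -1.32 ± 0.22 for RELB (adjusted p = 2.25e-05) and -1.25 ± 0.12 for CCL20 (adjusted p = 1.35e-11). For UBD it was -1.11 ± 0.10 (adjusted p = 9.6e-12), for ICAM1 -0.82 ± 0.061 (adjusted p = 1.33e-14) and for TNFAIP3 -0.61 ± 0.081 (adjusted p = 1.98e-07). NFKBIA was the exception, at 0.15 with an adjusted p of 0.162. For ICAM1, TNFAIP3 and UBD the 2 mixtures moved the gene to opposite sides, each with its own call. The median difference over the 8 members was -1.18, against 0.01 over all tested genes.

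In set 5, Citri Unshius Pericarpium and Cimicifugae Rhizoma differed for 7 of 8 members, where 28.1% of all genes differed. Citri Unshius Pericarpium lay lower for CXCL8 (-1.63 ± 0.35, adjusted p = 2.0e-04), RELB (-1.11 ± 0.24, adjusted p = 3.26e-04), CCL20 (-0.87 ± 0.12, adjusted p = 1.98e-07), BIRC3 (-0.81 ± 0.24, adjusted p = 0.0088), ICAM1 (-0.74 ± 0.062, adjusted p = 1.35e-13) and UBD (-0.66 ± 0.11, adjusted p = 1.74e-06). The BIRC3 difference was -0.65 with an adjusted p of 0.0639 without replicate 3 of Citri Unshius Pericarpium at 20 µg/mL. NFKBIA differed in the opposite sense (0.35 ± 0.070, adjusted p = 7.73e-05), having fallen in Cimicifugae Rhizoma. TNFAIP3 fell in both, and the difference of -0.09 had a 95% interval of -0.26 to 0.08.

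Set 6 held the most alike pair. Bupleuri Radix and Aconiti Lateralis Radix Preparata differed for 2 of 8 members, where 10.1% of all genes differed. CCL20 rose less in Bupleuri Radix (difference -0.99 ± 0.12, adjusted p = 6.94e-09), and UBD lay higher there (0.44 ± 0.10, adjusted p = 0.0016). For the other 6 the 95% intervals of the difference were -0.06 to 0.18 for ICAM1, -0.07 to 0.20 for NFKBIA, -0.09 to 0.24 for TNFAIP3, -0.67 to 0.20 for BIRC3, -0.51 to 0.37 for RELB and -0.60 to 0.61 for CXCL8. The intervals of the last 3 were the widest.

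**Figure D4:**
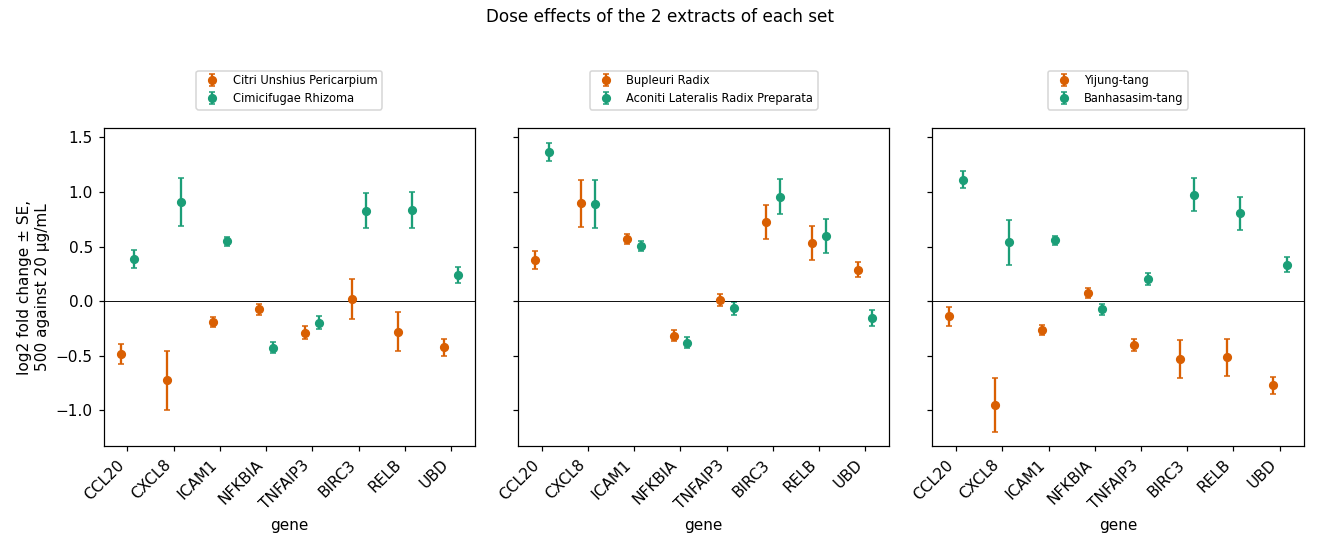
Log2 fold change of 500 against 20 µg/mL (vertical axis) for the 8 tested members (horizontal axis) in the 2 extracts of each set, 1 panel per set; points are estimates and bars are ± 1 standard error, n = 3 libraries per group. In the panel of set 7 the Banhasasim-tang points lie above the Yijung-tang points for every member but NFKBIA, and in the panel of set 6 CCL20 lies at 1.37 for Aconiti Lateralis Radix Preparata and 0.38 for Bupleuri Radix.

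Against vehicle, whose set differs from that of every extract, the high dose matched the dose contrast for some members and not for others, with a larger background. Vehicle libraries read 19, 23.0 and 25.0 CPM for CCL20, 81.3, 75.6 and 78.7 for ICAM1, 3.13, 3.75 and 2.43 for RELB and 3.25, 4.16 and 2.56 for BIRC3. At 500 µg/mL these 4 genes were higher in Banhasasim-tang (1.37, 0.80, 1.19 and 0.70), Aconiti Lateralis Radix Preparata (1.51, 0.73, 0.99 and 0.64), Cimicifugae Rhizoma (0.66, 0.70, 0.99 and 0.62) and Bupleuri Radix (0.61, 0.74, 0.80 and 0.40). CXCL8, which rose between doses in 3 extracts, was not called higher against vehicle in any (0.41 in Cimicifugae Rhizoma, 0.14 in Bupleuri Radix and 0.17 in Aconiti Lateralis Radix Preparata). ICAM1, which fell between doses in Yijung-tang and Citri Unshius Pericarpium, was not called against vehicle there (0.03 and -0.06), nor was CCL20 in Citri Unshius Pericarpium (-0.15). Banhasasim-tang had 6 of 8 members higher and 0 lower (18.1% of all genes higher and 16.7% lower). The 6 were CCL20, ICAM1, RELB, BIRC3, TNFAIP3 and UBD, while CXCL8 and NFKBIA were not called. Cimicifugae Rhizoma had 5 higher and 1 lower (23.6 and 22.2%), Bupleuri Radix 4 and 1 (18.8 and 17.0%) and Aconiti Lateralis Radix Preparata 4 and 2 (24.7 and 22.7%), with NFKBIA lower in all 3 and UBD lower in the last (-0.41). The BIRC3 call in Bupleuri Radix was lost without vehicle replicate 1 (0.39) or 3 (0.25) or without replicate 1 (0.36) or 2 (0.38) of the extract.

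CXCL8, UBD, TNFAIP3 and BIRC3 were lower than vehicle in Yijung-tang (0 higher and 4 lower, 17.3 and 15.6% of all genes) and in Citri Unshius Pericarpium (0 higher and 4 lower, 12.4 and 10.4%). In Yijung-tang UBD was at -1.06 ± 0.076 (adjusted p = 9.41e-15), CXCL8 at -1.39 ± 0.24 (adjusted p = 1.27e-05), BIRC3 at -0.84 ± 0.17 (adjusted p = 2.02e-04) and TNFAIP3 at -0.29 (adjusted p = 1.95e-04). The vehicle libraries read 1.71, 3.93 and 2.65 CPM for CXCL8, 23.1, 20.2 and 21.5 for UBD and 36.6, 42.9 and 34.8 for TNFAIP3. The high value of CXCL8, TNFAIP3 and BIRC3 was in each case that of replicate 2, which carries the lymphocyte markers.

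Without vehicle replicate 2 the called members kept their direction and some sizes changed. Members higher and lower were then 6 and 0 in Banhasasim-tang (28.1% of all genes called in either direction), 5 and 1 in Cimicifugae Rhizoma (41.1%), 4 and 1 in Bupleuri Radix (29.7%), 4 and 2 in Aconiti Lateralis Radix Preparata (42.2%), 0 and 4 in Yijung-tang (25.2%) and 0 and 3 in Citri Unshius Pericarpium (16.2%). CXCL8 in Yijung-tang moved from -1.39 to -1.05 and in Citri Unshius Pericarpium from -1.45 to -1.10, both still called. BIRC3 in Citri Unshius Pericarpium went from -0.50 to -0.31 and was no longer called (adjusted p = 0.278), as it also was not without vehicle replicate 1 (-0.51) or replicate 2 (-0.47) or 3 (-0.37) of the extract. In Cimicifugae Rhizoma UBD was lost (0.12, adjusted p = 0.217), as it was without vehicle replicate 3 (0.16) or replicate 1 or 2 of the extract (0.15 each), and CXCL8 was gained (0.75). RELB and BIRC3 were larger without that library in each of the 4 extracts that raised them, with RELB at 1.35 and BIRC3 at 0.90 in Banhasasim-tang.

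The 20 µg/mL groups also differed from vehicle for several members, and some of these differences were larger than at 500 µg/mL. Called members were 6 of 8 in Citri Unshius Pericarpium (19.6% of all genes), 2 in Cimicifugae Rhizoma (19.1%), 4 in Bupleuri Radix (22.1%), 4 in Aconiti Lateralis Radix Preparata (31.4%), 4 in Yijung-tang (27.3%) and 3 in Banhasasim-tang (28.6%). The counts of Cimicifugae Rhizoma and Banhasasim-tang lay near these shares and are no result about the members. In Yijung-tang ICAM1 was at 0.30 and RELB at 0.51 at the low dose, against 0.03 and -0.01 at the high dose. ICAM1 was higher in all 6, by 0.13 to 0.30, but without vehicle replicate 2 it was not called in Citri Unshius Pericarpium (0.11) or Cimicifugae Rhizoma (0.13). CXCL8 was lower in Citri Unshius Pericarpium (-0.72), Bupleuri Radix (-0.75) and Aconiti Lateralis Radix Preparata (-0.72), but in none of the 6 without vehicle replicate 2. Without that library the counts were 3 (11.6% of all genes), 1 (11.1%), 3 (15.1%), 5 (24.3%), 5 (20.2%) and 5 (21.2%) in the same order. The count of Cimicifugae Rhizoma was again near its share. Removing a trend of fold change with GC content left 2, 1, 1, 2, 2 and 1 members called, and the member called in each of the 6 was then CCL20, higher by 0.30 to 0.45.

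Bojungikgi-tang, with 1 library per dose, had no replicate check. At 20, 100 and 500 µg/mL CCL20 read 26.7, 24.8 and 26.8 CPM, ICAM1 87.9, 92.8 and 96.8, CXCL8 1.83, 1.99 and 2.25 and UBD 20.2, 21.4 and 21.2. NFKBIA read 115, 119 and 116, TNFAIP3 38.9, 39.8 and 37.9, BIRC3 2.87, 3.15 and 3.14 and RELB 4.27, 5.58 and 4.35 CPM. For every one of these 8 members the 3 libraries stayed within the range of the libraries of the replicated extracts.

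Genes around the members in the pathway were followed at 500 against 20 µg/mL in lists, which were also chosen with earlier results of these data known. Their counts are to be read against the shares of all tested genes that rose and fell, which were 19.9 and 19.1% in Cimicifugae Rhizoma, 10.0 and 8.74% in Bupleuri Radix, 19.7 and 17.3% in Aconiti Lateralis Radix Preparata, 8.17 and 6.77% in Banhasasim-tang, 0.708 and 0.926% in Citri Unshius Pericarpium and 1.72 and 2.01% in Yijung-tang. Several counts below, such as those of Cimicifugae Rhizoma for the subunits and the interferon genes, lie near these shares and are no result about the list. Of 13 subunits and inhibitors of NF-kB, all tested, 3 rose and 2 fell in Cimicifugae Rhizoma, 4 and 1 in Bupleuri Radix, 4 and 3 in Aconiti Lateralis Radix Preparata, 3 and 0 in Banhasasim-tang, and 0 and 0 in Citri Unshius Pericarpium and Yijung-tang. NFKB2, the partner subunit of RELB, rose by 0.59 ± 0.062 (adjusted p = 3.27e-11), 0.45, 0.49 and 0.40 in those 4 extracts, from 17.3 to 26.0 CPM in the first. BCL3, a nuclear IkB protein, fell in 3 of them, to -0.57, -0.39 and -0.61, and the deubiquitinase CYLD rose in Cimicifugae Rhizoma (0.43), Aconiti Lateralis Radix Preparata (0.23) and Banhasasim-tang (0.26). The medians of the list were -0.03 to 0.12.

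Of 22 other cytokines and chemokines, 7 were tested, and TNF, IL1A, IL1B, IL6, CCL2, CCL5 and CXCL10 were among those too low to test. All 7 rose in Cimicifugae Rhizoma and in Bupleuri Radix (medians 0.79 and 0.54), 6 rose in Banhasasim-tang (0.39), and 5 rose and 2 fell in Aconiti Lateralis Radix Preparata (0.72). In each of Citri Unshius Pericarpium and Yijung-tang 1 rose, TNFSF10, the death ligand TRAIL, at 0.40 ± 0.099 and 0.38 ± 0.097. CSF1, the macrophage growth factor, was higher by 1.04 ± 0.072, 0.56 ± 0.071, 0.93 ± 0.069 and 0.39 ± 0.070 in Cimicifugae Rhizoma, Bupleuri Radix, Aconiti Lateralis Radix Preparata and Banhasasim-tang. LIF, a cytokine of the interleukin-6 family, rose by 1.36 ± 0.095 in Cimicifugae Rhizoma and 1.58 ± 0.090 in Aconiti Lateralis Radix Preparata. It also rose in Banhasasim-tang, by 0.50 ± 0.096, and was among the 7 that rose in Bupleuri Radix.

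Other NF-kB targets were tested for 14 of 21 genes. In Cimicifugae Rhizoma 7 rose and 0 fell, in Bupleuri Radix 5 and 0, in Aconiti Lateralis Radix Preparata 7 and 2 and in Banhasasim-tang 4 and 1, while 0 rose and 2 fell in Yijung-tang and likewise in Citri Unshius Pericarpium. IER3, an early response gene linked to survival, rose by 1.07, 0.96, 1.53 and 0.89 in the first 4. It fell in Citri Unshius Pericarpium (-0.28) and Yijung-tang (-0.24). Complement factor B, CFB, fell in Citri Unshius Pericarpium (-0.29) and Yijung-tang (-0.22), and also in Aconiti Lateralis Radix Preparata (-0.24) and Banhasasim-tang (-0.25), where CCL20 rose. The list medians ran from -0.09 to 0.19.

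Upstream, 15 of 19 receptors of inflammatory ligands were tested, and rose and fell in numbers of 6 and 3 in Cimicifugae Rhizoma, 3 and 2 in Bupleuri Radix, 7 and 3 in Aconiti Lateralis Radix Preparata, 3 and 2 in Banhasasim-tang, 1 and 0 in Citri Unshius Pericarpium and 0 and 1 in Yijung-tang. TNFRSF12A, the receptor of TWEAK, rose by 1.27, 0.74, 1.09 and 0.63 in the first 4 and fell to -0.33 in Yijung-tang. IL6R, the interleukin-6 receptor, rose in 5, by 1.34, 0.66, 1.24 and 0.53 in the same 4 and by 0.30 in Citri Unshius Pericarpium. Among 20 signalling genes 6 rose and 3 fell in Cimicifugae Rhizoma, 2 and 1 in Bupleuri Radix, 8 and 5 in Aconiti Lateralis Radix Preparata, 3 and 1 in Banhasasim-tang, 2 and 0 in Citri Unshius Pericarpium and 1 and 0 in Yijung-tang. IKBKG, the regulatory subunit NEMO of the IkB kinase, rose in all 6, by 0.86, 0.60, 0.65 and 0.48 in the first 4, by 0.25 in Citri Unshius Pericarpium and by 0.35 in Yijung-tang. It has a near-identical pseudogene copy, so its level is uncertain. TAB3, an adaptor of the kinase TAK1, rose by 0.55, 0.30, 0.47 and 0.34 in the first 4 and by 0.21 in Citri Unshius Pericarpium.

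Interferon-response genes, 13 tested, gave counts near the shares of all genes in Cimicifugae Rhizoma and Bupleuri Radix, with 3 rising and 4 falling in Cimicifugae Rhizoma, 1 and 2 in Bupleuri Radix, 1 and 5 in Aconiti Lateralis Radix Preparata, 1 and 4 in Banhasasim-tang and 0 and 0 in both extracts that lowered UBD. The guanylate-binding protein GBP2 rose in 4 extracts (1.28, 0.72, 0.70 and 0.64), while GBP1 fell in Cimicifugae Rhizoma (-0.86). The immunoproteasome subunit PSMB8 fell in Bupleuri Radix (-0.27), Aconiti Lateralis Radix Preparata (-0.43) and Banhasasim-tang (-0.31). PSMB9 fell in Cimicifugae Rhizoma (-0.83) and Bupleuri Radix (-0.47), and IFIT1 in Aconiti Lateralis Radix Preparata (-0.86) and Banhasasim-tang (-0.93).

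Among markers of leukocytes and endothelium, LYZ moved with the members in part and CD68 also rose, while others fell. The sum over 8 marker genes was nearly all LYZ. It was higher at 500 than at 20 µg/mL in Cimicifugae Rhizoma (2930 against 1199 CPM), Bupleuri Radix (2152 against 1180), Aconiti Lateralis Radix Preparata (2038 against 1105) and Banhasasim-tang (1882 against 1262). It was 1206 against 1167 in Citri Unshius Pericarpium and 1135 against 1242 in Yijung-tang. The defining markers PTPRC, CD3E and MS4A1 stayed at or below 0.0494 CPM in every extract library. The part of the LYZ level in the changes of the members was not tested. Of the 5 markers tested, 2 rose and 2 fell in Cimicifugae Rhizoma, 1 and 2 in Bupleuri Radix, 2 and 3 in Aconiti Lateralis Radix Preparata, 2 and 1 in Banhasasim-tang, 0 and 0 in Citri Unshius Pericarpium and 1 and 0 in Yijung-tang. The list medians were -0.79, -0.43, -0.48 and -0.27 in the first 4 and 0.04 and 0.01 in the last 2. CD68 rose in Cimicifugae Rhizoma (0.43), Aconiti Lateralis Radix Preparata (0.51), Banhasasim-tang (0.29) and Yijung-tang (0.28). Markers that fell included PECAM1 (-1.05 in Cimicifugae Rhizoma and -0.50 in Banhasasim-tang). CD14 fell in Bupleuri Radix (-0.68) and Aconiti Lateralis Radix Preparata (-1.05), and CDH5 in Bupleuri Radix (-2.23). These genes were low, with medians over all libraries of 3.06 CPM for PECAM1, 2.17 for CD14 and 0.387 for CDH5. Their fold changes and the list medians therefore rest in part on few reads. Hepatocyte markers, 6 tested, counted 1 higher and 2 lower in Cimicifugae Rhizoma, 1 and 1 in Bupleuri Radix, 0 and 4 in Aconiti Lateralis Radix Preparata, 0 and 1 in Banhasasim-tang and none in the other 2.

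Over the 19 replicated groups the members did not share 1 profile. The Pearson correlation of group means in log2 CPM was 0.94 for ICAM1 with RELB, 0.87 for CCL20 with ICAM1 and 0.87 for ICAM1 with BIRC3, -0.74 for NFKBIA with BIRC3 and 0.31 for CCL20 with UBD. Groups share sets, depth and the extracts, so these values only describe. The profile nearest to ICAM1 among genes outside the set was NFKB2 (r = 0.98), ahead of EPHA2 (0.96) and EHD4 (0.95). RELB was nearest to CD2BP2 (0.95), NFKB2 (0.93) and KRT18 (0.93), BIRC3 to NFE2L3 (0.95), LRRC1 (0.94) and TPM4 (0.93), and CCL20 to SEMA4C (0.93), EPHA2 (0.92) and IER3 (0.91). NFKBIA was nearest to PIMREG, CENPM and TMEM86B (0.94, 0.94 and 0.93), and CXCL8 to TCIM, MORC4 and DUSP1 (0.93, 0.89 and 0.87). TNFAIP3 and UBD had looser neighbours, THBS1 (0.86), KRT23 (0.74) and SPRY1 (0.72) for the first and ANXA3 (0.80), NTN4 (0.79) and NT5C2 (0.77) for the other.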

How the data were processed

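Of the 60 messenger RNA libraries, stranded by kit and read as paired ends per the labels' protocols, reads were checked with FastQC 0.11.9, trimmed with Trim Galore 0.6.5, aligned to GRCh38 with STAR 2.7.3a and counted with RSEM 1.3.3, per the submitters' processing notes. The annotation release and the strand setting of the counting are not given in the sources used here. The deposited table holds RSEM expected counts, not normalized, and 24.5% of its nonzero values are not whole, so they were rounded for the fit. Another 207 columns match none of these samples and were not used. Expected counts summed to 17598646 to 30451640 per library (21014795 to 22891342 in the vehicle), which gives the precision stated beside the low genes.

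Libraries were grouped by their labels. Symbols came from a separate list of gene names, or from GENCODE release 29 where that list gave none (57055 of 60675 genes). The other 3620 genes held 0.0398% of counts. The 57 replicated libraries entered 1 edgeR 4.0.16 quasi-likelihood fit (R 4.3.3, limma 3.58.1) of 19 groups, with filterByExpr (16093 genes) and TMM scaling. The comparisons were 500 against 20, 100 against 20, 500 against vehicle and 20 against vehicle for 6 extracts, and the difference of the 500 against 20 effect between the extracts of a set. Standard errors came from each fold change and its F statistic. The 10 members are named throughout, with up to 3 called genes of smallest p from each pathway list and the 3 genes nearest to each member in profile (mean CPM of 5 or more, CXCL1 and CXCL2 left out as too low). The members and lists were chosen with earlier results of these data known. The fit was also run on simulated data in which a limited set of genes changed in a single group. Those data held no differences between sets or among the other groups, so the run does not cover the comparisons above. Alternatives were DESeq2 1.42.0, median-ratio size factors, other filters, a replicate block, removal of a GC trend, fits of only the groups compared and leaving out each library. The fits of only the groups compared held all doses of the extract, with the vehicle for contrasts against it. For a difference between extracts they held all libraries of the set. For the vehicle the sample labels give 0.1% DMSO and the series text 2% DMSO. That text also names wortmannin as a control, which was not analysed here.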

Additional observations from a re-analysis of the deposited data

Results flagged for a closer look

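The dose effect (500 against 20 µg/mL) differed between the 2 extracts of a set in 16 of the tests on single members, by an interaction term in the edgeR fit with Benjamini-Hochberg adjustment over all genes. In each set 8 members were tested, and 7 differed in set 5, 2 in set 6 and 7 in set 7. Of all tested genes 28.1% differed in either direction in set 5, 10.1% in set 6 and 12.1% in set 7. All values are differences of log2 fold changes. Citri Unshius Pericarpium minus Cimicifugae Rhizoma gave -0.87 for CCL20, -1.63 for CXCL8, -0.74 for ICAM1, -0.66 for UBD, -0.81 for BIRC3, -1.11 for RELB and 0.35 for NFKBIA. Bupleuri Radix minus Aconiti Lateralis Radix Preparata gave -0.99 for CCL20 and 0.44 for UBD. Yijung-tang minus Banhasasim-tang gave -1.25 for CCL20, -1.49 for CXCL8, -0.82 for ICAM1, -1.11 for UBD, -0.61 for TNFAIP3, -1.50 for BIRC3 and -1.32 for RELB. Groups of 3 libraries were not screened for outlying samples.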

How the results depend on the processing

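No count of called members for 500 against 20 µg/mL, 500 µg/mL against vehicle or the difference between extracts moved by over 1.5 times under any alternative run. The counts that did move were small. For 100 against 20 µg/mL, Citri Unshius Pericarpium went from 0 to 1 with DESeq2, without a filter on low counts, with the GC trend removed, with the replicate block, with both, and with only the groups compared. Bupleuri Radix went from 1 to 2 with DESeq2, the GC trend removed or the replicate block, to 3 with block and GC together and to 0 with only the groups compared, and Yijung-tang from 2 to 1 without a filter and 0 with only the groups compared. For 20 µg/mL against vehicle, removing the GC trend, alone or with the replicate block, gave 2 for Citri Unshius Pericarpium, 1 for Cimicifugae Rhizoma, 1 for Bupleuri Radix, 2 for Aconiti Lateralis Radix Preparata, 2 for Yijung-tang and 1 for Banhasasim-tang; Cimicifugae Rhizoma had 1 without a filter, and Bupleuri Radix 2 with only the groups compared. Leaving out 1 library each gave 0 to 1 for Bupleuri Radix, 1 for Aconiti Lateralis Radix Preparata and 0 to 2 for Yijung-tang at 100 against 20 µg/mL. Against vehicle at 20 µg/mL it gave 2 to 5 for Citri Unshius Pericarpium, Aconiti Lateralis Radix Preparata, Yijung-tang and Banhasasim-tang, 1 to 2 for Cimicifugae Rhizoma and 2 to 3 for Bupleuri Radix. The cause was not tested.

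ICAM1 in Yijung-tang at 500 µg/mL against vehicle was 0.03 and not called, and turned to -0.097 with the GC trend removed (adjusted p = 0.0442) and to -0.097 with block and GC together (adjusted p = 0.0453). Calls lost in part elsewhere were BIRC3 of Citri Unshius Pericarpium and of Bupleuri Radix and UBD of Cimicifugae Rhizoma, all at 500 µg/mL against vehicle. Of 216 member fold changes per alternative, 210 kept direction and side of the threshold with DESeq2, 213 with median-ratio size factors, 210 with the replicate block and 175 with the GC trend removed.

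Replicate numbers were not treated as pairs, because correlations between libraries of 1 number within a set ran from -0.096 to 0.206 and were not all above 0.1. Still, 41 of 54 libraries correlated best with their own number, a hint of pairing from the data and not from the design. The block gained 6 member calls and lost none. Over all genes, calls for 500 against 20 µg/mL went from 263 to 414 in Citri Unshius Pericarpium and from 600 to 933 in Yijung-tang with the block, to 432 with the GC trend removed and 565 with both in the first, and to 1072 with both in the other. With only the groups compared they were 216 in Yijung-tang and 1532 of 2404 in Banhasasim-tang. Leaving out single libraries gave as few as 162 in Citri Unshius Pericarpium (replicate 2 at 20 µg/mL) and in Yijung-tang 345 (replicate 1 at 20 µg/mL) or 393 (replicate 2 at 500 µg/mL). With the GC trend removed, calls against vehicle at 500 µg/mL went from 3670 to 1963 in Citri Unshius Pericarpium and from 5292 to 2079 in Yijung-tang, and at 20 µg/mL from 4596 to 446 in Banhasasim-tang. Depth limits CXCL1 and CXCL2, which could not be tested.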
